A study of Rattus norvegicus with 12 samples.

Results

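The 9 genes described here mark successive stages of the oligodendrocyte lineage, the glial cells that wrap axons in myelin. They were chosen by name and are taken in the order of stage: Pdgfra, then the transcription factors Olig1, Olig2 and Sox10, then Gpr17 and Enpp6, then Myrf and Lpar1, and last Mbp. All 9 were in the deposited table of 17339 gene symbols, and all 9 were among the 12073 genes that passed a filter on low values. Enpp6 and Lpar1 reached the filter level of 10 read equivalents in 10 of 12 libraries, and the other 7 members in all 12.

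Oligodendrocyte precursors divide under PDGF, which they sense through the receptor encoded by Pdgfra, and carry Olig1, Olig2 and Sox10. On leaving the cell cycle they pass through a short committed stage marked by Gpr17 and Enpp6, after which the transcription factor Myrf switches on the genes of myelin, Mbp among them. Some precursors persist in cultures of embryonic cortex beside the neurons and astrocytes.

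The RNA came from primary cortical cultures of Wistar rat embryos at day E18, labelled as neurons. The 12 libraries formed 4 groups of 3: wild-type, wild-type with tetrodotoxin (TTX), knockdown, and knockdown with TTX. The knockdown was a short hairpin RNA against Ehmt1, a histone H3 lysine 9 methyltransferase of Kleefstra syndrome, and TTX is a sodium channel blocker that stops action potentials. The titles name no control hairpin, so effects of a hairpin or of its delivery cannot be told apart from those of Ehmt1. The sources used here do not give the dose and time of TTX. Wild-type and knockdown are called genotypes, and a TTX and an untreated library of 1 genotype and replicate number are called a culture. That such libraries share a culture was inferred from how they deviate together. Levels are read equivalents, the coverage that 1 read of 42 nt adds, after the authors' size factors. They compare libraries for 1 gene and not genes with each other, because transcript lengths were not used. In bulk RNA, fewer cells of a type and less RNA per cell cannot be told apart.

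Before size factors the depth was 15108848 to 24787516 read equivalents a library, repeated entries included. Ehmt1, the target, lay between 1586 and 2039 in the 6 wild-type libraries and between 1037 and 1535 in the 6 knockdown libraries. The label of cortical neurons was matched by Tubb3, a neuronal tubulin, at 19974 to 40915 over all libraries. Gfap, the intermediate filament of astrocytes, was at 5528 to 28816. Of the microglia markers, C1qa, a complement subunit, was at 0 in all 6 knockdown libraries and at 0 to 35.7 in wild-type. Cldn5, a tight junction protein that defines endothelium, was close to 0, at 0 to 2.54.

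Promoter windows of 300 bases, 250 before to 50 after the start of the gene, were found in RefSeq on the GRCr8 assembly for 5 of 9 members. Those of 3 genes are shown because the results turn on them: Mbp, whose 2 starts fall 79593 bases apart and whose transcripts are separated in the data, Gpr17, which was the member farthest below the other libraries in 1 culture, and Olig2, which was nearest to the other libraries there among the 8 genes that were lowest. The upstream Mbp start lies at chr18:78130402-78130701 on the plus strand and the downstream one at chr18:78209995-78210294 on the plus strand. Gpr17 lies at chr18:23857332-23857631 on the minus strand and Olig2 at chr11:43961335-43961634 on the plus strand. Capitals mark the cores ACAAAG and ACAAT, read on both strands, which SOX factors such as Sox10 recognise.
Mbp upstream start: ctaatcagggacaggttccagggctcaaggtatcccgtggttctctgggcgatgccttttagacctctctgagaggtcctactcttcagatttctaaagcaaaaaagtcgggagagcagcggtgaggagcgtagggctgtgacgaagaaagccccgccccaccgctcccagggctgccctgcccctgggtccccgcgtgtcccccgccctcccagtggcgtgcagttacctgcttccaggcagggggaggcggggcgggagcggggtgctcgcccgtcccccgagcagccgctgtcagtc
Mbp downstream start: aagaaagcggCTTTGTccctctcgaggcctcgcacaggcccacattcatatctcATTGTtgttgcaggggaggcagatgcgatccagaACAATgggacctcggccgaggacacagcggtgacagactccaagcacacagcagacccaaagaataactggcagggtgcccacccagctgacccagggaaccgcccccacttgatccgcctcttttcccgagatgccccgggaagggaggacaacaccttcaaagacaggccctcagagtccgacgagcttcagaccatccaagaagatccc
Gpr17: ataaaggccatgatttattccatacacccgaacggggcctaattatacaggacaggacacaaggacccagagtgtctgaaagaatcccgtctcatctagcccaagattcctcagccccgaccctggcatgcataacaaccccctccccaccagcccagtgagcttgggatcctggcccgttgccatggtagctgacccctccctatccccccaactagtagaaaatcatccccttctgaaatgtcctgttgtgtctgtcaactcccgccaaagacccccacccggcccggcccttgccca
Olig2: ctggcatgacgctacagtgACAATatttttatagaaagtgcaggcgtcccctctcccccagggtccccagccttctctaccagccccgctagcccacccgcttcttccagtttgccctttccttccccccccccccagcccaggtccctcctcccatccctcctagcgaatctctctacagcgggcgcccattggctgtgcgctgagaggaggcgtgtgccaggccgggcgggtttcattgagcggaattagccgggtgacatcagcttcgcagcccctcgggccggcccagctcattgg
The downstream Mbp window held 1 ACAAAG and 2 ACAAT matches, none of them overlapping, and the upstream window held none. Gpr17 held none and Olig2 held 1 ACAAT. Such matches are common: 18.8% of 33469 windows of this length held ACAAAG and 33.7% held ACAAT. The table does not pair a start with a transcript, and a match is letters in a window and no measure of binding.

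One culture stood apart. In both libraries of knockdown culture 1, 8 of 9 members lay below all other 10 libraries, Olig1 being the exception, against 6.8% of all genes tested. For Pdgfra, Sox10, Gpr17 and Enpp6 the gap was more than 5-fold, which held for 0.207% of all genes tested, 25 in number. Of those 25 genes 4 were members and 8 came from lists of the lineage, namely Bmp4, Matn4, Neu4, Pcdh15, Nkx2-2, Fa2h, Cldn11 and Apod. The other 13 were in no list used here, with Myo7b, Lims2, Pkp1 and Olfml2a the farthest below, all named after their values were seen. The untreated library of this culture was the deepest of the 12, at 24787516 read equivalents, and its TTX library held 17807192. Its Ehmt1 level, 1044 untreated and 1187 with TTX, was close to that of knockdown culture 3, at 1037 and 1162. Knockdown culture 2 kept more Ehmt1, at 1535 and 1519, against 1586 in the lowest wild-type library. The part of depth and of the Ehmt1 level in the low values of culture 1 was not tested. The members' knockdown changes are given with and without knockdown culture 1, a choice made after its values were seen. For Ehmt1 the log2 change over both treatments, from culture averages in limma, was -0.51 (SE 0.17, adjusted p = 0.773). Without knockdown culture 1 it was -0.44 (SE 0.19, adjusted p = 0.996).

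Lists of genes by cell type were compared for the same pattern. Both libraries of knockdown culture 1 were the lowest for 12 of 15 precursor genes, 8 of 15 genes of differentiating oligodendrocytes and 10 of 19 myelin genes. The count was 4 of 16 for astrocyte genes, 2 of 12 for fibroblast and mural genes, 1 of 14 for dividing progenitors, 0 of 14 for neuronal genes and 0 of 7 for microglia. Within each treatment the summed neuron list was highest in that culture, at 157758 untreated and 128227 with TTX, against 80524 to 131692 in the other 10 libraries. The fibroblast and mural receptor Pdgfrb averaged 190.1 in knockdown culture 1 and 549 to 1089 in the other 5 cultures. Of the matrix genes that define fibroblasts, Lum averaged 19.0 there against 0.458 to 2.68 in the other 5, while Dcn (54.6 against 16.6 to 95.5) and Col1a1 (101.6 against 13.0 to 137.7) lay inside the others' range. The summed fibroblast and mural list averaged 2717 in that culture and 3973 to 5974 in the other 5. The part of these cell markers in the result was not tested.

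**Figure D1:**
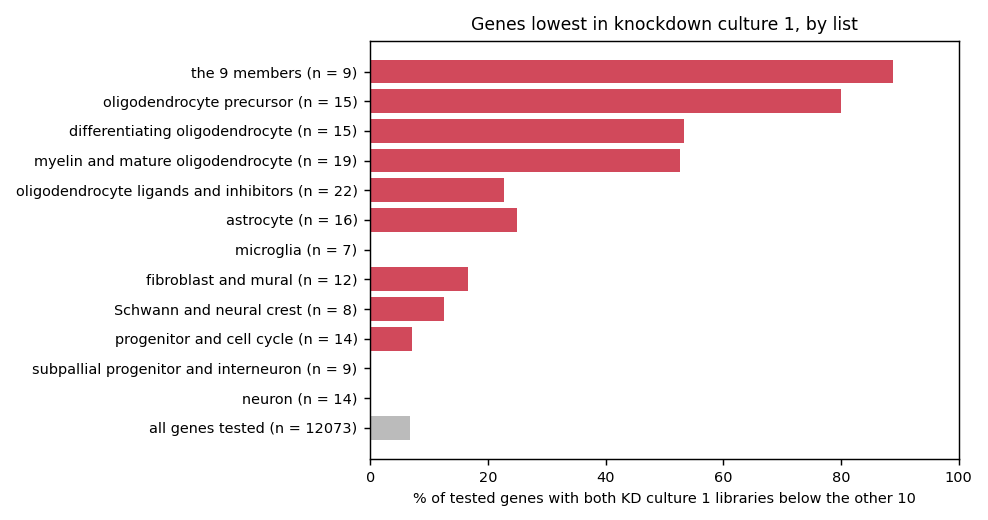
Share of the tested genes of each list, in percent, for which both libraries of knockdown (KD) culture 1 lay below the other 10 libraries; n is the number of genes tested. Bars for the members (8 of 9) and the precursor list (12 of 15) are the longest, and the grey bar is all genes tested (6.8%).

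Pdgfra (NM_012802), the receptor that keeps precursors dividing, stood at 11871, 8312 and 7555 in wild-type cultures 1, 2 and 3 and at 14729, 9679 and 6492 with TTX. In knockdown it stood at 397.5, 8572 and 7651, and with TTX at 440.0, 7853 and 8085. Knockdown cultures 2 and 3 fell inside the wild-type range, and culture 1 alone was far below it, by 14.8-fold from the nearest other library. The log2 change over both treatments, from culture averages in limma, was -1.65 (SE 1.14, adjusted p = 0.781), and -0.23 (SE 0.29, adjusted p = 0.996) without knockdown culture 1.

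Olig1 (NM_021770), a basic helix-loop-helix factor of the lineage, was the one member with a higher average in knockdown. It stood at 9539, 11554 and 13015 in wild-type, at 13070.1, 15536 and 14283 in wild-type with TTX, at 16468, 14585 and 18093 in knockdown, and at 21521, 17474 and 19717 in knockdown with TTX. The 3 knockdown libraries lay above all 3 wild-type libraries within each treatment, while across treatments the lowest knockdown library was below the highest wild-type one. Averaged by culture, the level was 17976 ± 1687 in knockdown against 12833 ± 1325 in wild-type (SD, n = 3 cultures each; exact two-sided permutation p = 0.1, the lowest possible with 3 against 3). In limma the log2 change was 0.49 (SE 0.14, adjusted p = 0.773) and 0.45 (SE 0.17, adjusted p = 0.996) without knockdown culture 1. Knockdown culture 1, lowest for the other 8 members, was not the lowest here.

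Olig2 (NM_001100557), its partner factor and its neighbour on chromosome 11, was at 6403, 6044 and 4732 in wild-type, and with TTX at 6705, 7161 and 5046. In knockdown it stood at 3565, 6145 and 6303, and with TTX at 4351, 6515 and 6761. Knockdown culture 1 was the lowest of the 6 cultures here too, but by 1.09-fold only from the nearest other library. Knockdown averaged 93.2% of wild-type over 3 cultures and 106.9% over cultures 2 and 3. The log2 change was -0.12 (SE 0.24, adjusted p = 0.909) and turned to 0.11 (adjusted p = 0.996) without culture 1.

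Sox10 (NM_019193), which sustains the lineage and drives myelin genes with Myrf, was at 1286, 531 and 721 in wild-type, and with TTX at 1526, 766 and 837. The knockdown libraries held 26.4, 633 and 603, and with TTX 26.4, 522 and 599. Knockdown culture 1 lay 19.8-fold below the nearest other library, and both other knockdown cultures overlapped the wild-type range at its low end. The log2 change was -2.07 (SE 1.19, adjusted p = 0.773) with all cultures and -0.59 without culture 1 (adjusted p = 0.996).

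**Figure D2:**
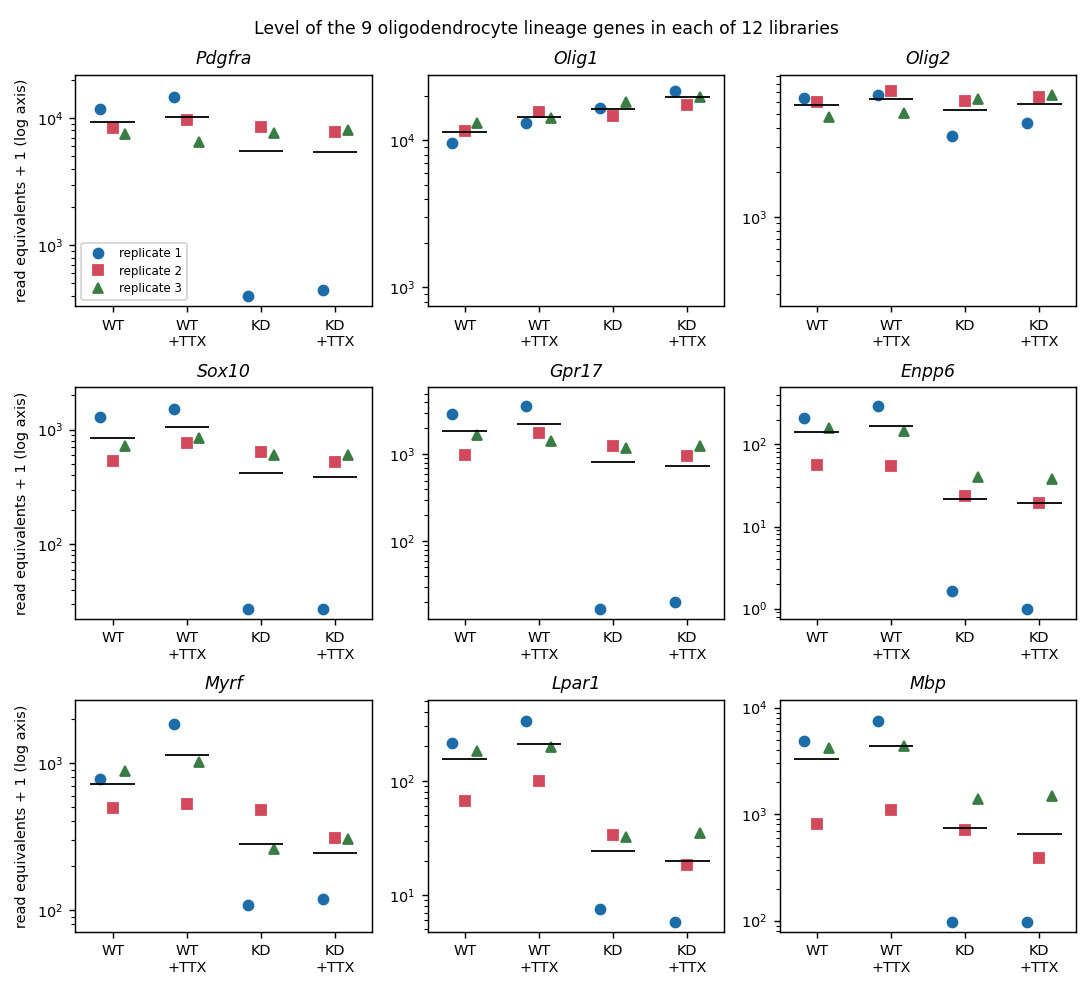
Level of each member in each library, in read equivalents plus 1 on a log axis, by group (WT wild-type, KD knockdown), with a marker per replicate number and a black line at the mean of 3 libraries. Knockdown replicate 1 is far below the others for Pdgfra, Sox10, Gpr17 and Enpp6, and Olig1 alone is higher in knockdown.

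Gpr17 (NM_001071777) encodes an orphan receptor that peaks in committed precursors and holds back their maturation. It was at 2889, 992 and 1685 in wild-type, and with TTX at 3623, 1744 and 1419. In knockdown it stood at 15.7, 1249.97 and 1177, and with TTX at 18.7, 955 and 1257. Knockdown culture 1 was 50.9-fold below the nearest other library, the widest gap of the 12073 genes by this measure. Lims2, which overlaps Gpr17 in RefSeq, and Myo7b, the next gene along, were 36.2-fold and 39.6-fold below, Lims2 being named after its values were seen. The libraries were strand-specific, but the sources used here do not say whether counting used the strand, so reads of overlapping genes cannot be told apart. The log2 change of Gpr17 was -2.70 (SE 1.60, adjusted p = 0.779) and -0.70 without culture 1 (adjusted p = 0.996).

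Enpp6 (NM_001107311), a choline phosphodiesterase of newly formed oligodendrocytes, was lower in every knockdown library than in any wild-type library. It measured 211.5, 55.6 and 157.8 in wild-type, and 296.5, 54.0 and 143.7 with TTX. The knockdown values were 0.630, 22.2 and 38.8, and with TTX 0, 18.2 and 37.4. In knockdown culture 1 both values were under the level of 3 reads, which is 2.48 untreated and 3.32 with TTX. The log2 change of -3.66 (SE 1.30, adjusted p = 0.773) therefore depends on the pseudocount of 1 and was -2.90 with a pseudocount of 5. Without culture 1 it was -2.16 (adjusted p = 0.996), with knockdown cultures 2 and 3 at 19.0% of the wild-type mean.

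Myrf (NM_001170487), the membrane-bound factor that activates myelin genes, was also lower in all 6 knockdown libraries than in all 6 wild-type libraries. It stood at 776.5, 495.0 and 886.9 in wild-type, at 1852, 528.2 and 1010.0 in wild-type with TTX, at 107.4, 476.2 and 258.7 in knockdown, and at 118.5, 307.7 and 303.3 in knockdown with TTX. The separation was narrow, 1.04-fold between the lowest wild-type and the highest knockdown library. By culture the averages were 262 ± 140 in knockdown and 925 ± 402 in wild-type (SD, n = 3 cultures each; exact two-sided permutation p = 0.1, the lowest possible). The log2 change was -1.86 (SE 0.51, adjusted p = 0.773) and -1.35 without culture 1 (adjusted p = 0.996).

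Lpar1 (NM_053936), a lysophosphatidic acid receptor of maturing oligodendrocytes, showed the widest separation of the genotypes among the members. It measured 214.4, 66.1 and 182.6 in wild-type, and 330.1, 98.4 and 194.6 with TTX. Knockdown libraries held 6.62, 32.3 and 31.4, and with TTX 4.85, 17.4 and 33.8. The lowest wild-type library was 1.96-fold above the highest knockdown library. By culture the averages were 21.1 ± 13.8 in knockdown and 181.0 ± 95.2 in wild-type, or 11.6% (SD, n = 3 cultures each; exact two-sided permutation p = 0.1, the lowest possible). The log2 change was -3.18 (SE 0.70, adjusted p = 0.773) and -2.48 (SE 0.51, adjusted p = 0.996) without culture 1, where the level was 15.9% of wild-type.

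Mbp, which encodes the protein that compacts the myelin sheath, had 6 entries in the table: 5 for classic myelin basic protein and 1 named Golli-Mbp, a longer form made outside myelin as well. The 5 classic entries lay within 5.09% of the one used (NM_001025291). Classic Mbp stood at 4914, 814 and 4206 in wild-type, and with TTX at 7559, 1086 and 4395. In the knockdown libraries it was 97.1, 707 and 1402, and with TTX 96.9, 387 and 1488. Wild-type culture 2 was low, so knockdown culture 3 lay above it and the genotypes overlapped. The log2 change was -2.79 (SE 1.11, adjusted p = 0.773) and -1.74 without culture 1 (adjusted p = 0.996), and the exact two-sided permutation p over 3 against 3 culture averages was 0.2. That p was 0.1 for Sox10, Gpr17 and Enpp6, 0.4 for Pdgfra and 0.5 for Olig2.

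The Golli entry (NM_001025289) spread less, with 2.57 between the highest and lowest wild-type culture against 6.56 for the classic entry. It ranged from 368 to 1215 in wild-type and from 271 to 482 in knockdown, so that knockdown averaged 50.4% of wild-type against 18.2% for the classic entry. In knockdown culture 1 it stood at 271 untreated and 307 with TTX, 1.20-fold below the nearest other library. The ratio of classic to Golli was 2.20 to 6.22 over the wild-type libraries, 0.358 and 0.315 in knockdown culture 1, 1.62 and 0.994 in culture 2, and 2.93 and 3.09 in culture 3. Entries of 1 gene can share exons, so their coverage is not independent. The ratio was below 1 in both libraries of culture 1 and in the TTX library of culture 2.

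**Figure D3:**
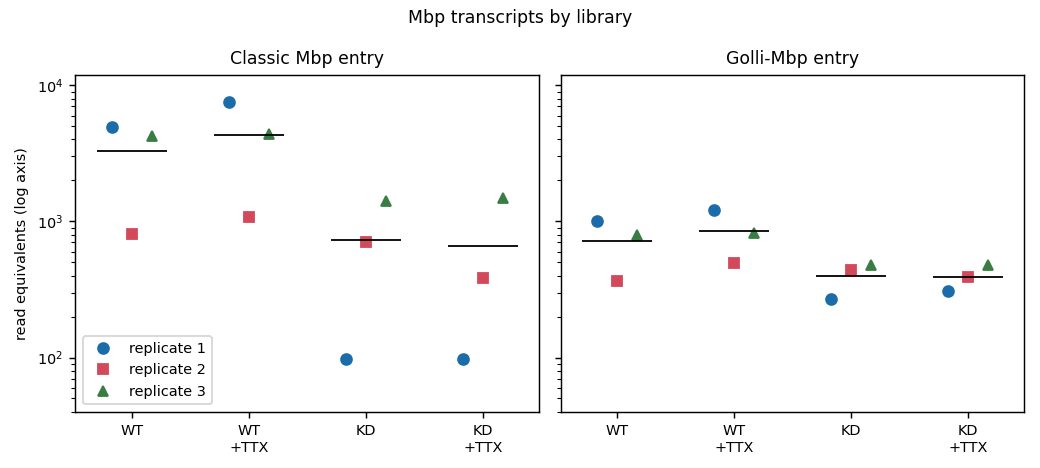
Read equivalents (log axis) of the classic Mbp entry and of the Golli-Mbp entry in each library, by group (WT wild-type, KD knockdown) and replicate number, with a black line at the mean of 3. The classic entry is at 97.1 and 96.9 in knockdown replicate 1, where the Golli entry is at 271 and 307.

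Across the 9 members, knockdown cultures 2 and 3 held a larger share of the wild-type mean for the early genes than for the late ones. Their average was 82.3% of the wild-type mean for Pdgfra, 136.1% for Olig1, 106.9% for Olig2, 62.4% for Sox10 and 56.3% for Gpr17. The later members were at 19.0% for Enpp6, 36.4% for Myrf, 15.9% for Lpar1 and 26.0% for Mbp. For 3 of 9 members, Enpp6, Myrf and Lpar1, the 6 knockdown libraries were all lower than any of the 6 wild-type ones, against 1.04% of all genes tested. No member had all knockdown libraries above, against 0.845%. Among the wild-type cultures, the highest over the lowest was 1.89 for Pdgfra, 1.21 for Olig1, 1.35 for Olig2, 2.17 for Sox10, 2.38 for Gpr17, 4.64 for Enpp6, 2.57 for Myrf, 3.31 for Lpar1 and 6.56 for Mbp. No order along the lineage was tested. In knockdown culture 1, Olig1 was not low and Olig2 was far less low than Pdgfra. Olig1 averaged 18994 there, and 16029 and 18905 in knockdown cultures 2 and 3. For Olig2 these averages were 3958, 6330 and 6532, and for Pdgfra 419, 8213 and 7868. Which cells the RNA of Olig1 and Olig2 came from was not tested, so their shares need not measure the early stages.

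In the knockdown comparison over both treatments no member passed limma at an adjusted p of 0.05. The comparison called 0% of all genes, with 735 at an unadjusted p under 0.05, 5 of the 9 members among them. Over all alternatives the adjusted p of this change lay between 0.112, for Lpar1, and 0.996. Untreated and with TTX taken apart, 0% of genes were called as well, with 736 and 986 at an unadjusted p under 0.05. Side by side, the untreated and TTX values were as follows for Lpar1 (log2 -2.78 and -3.58), Enpp6 (-3.44 and -3.88), Mbp (-2.48 and -3.11), Myrf (-1.56 and -2.16), Gpr17 (-2.54 and -2.85) and Pdgfra (-1.61 and -1.68). The values were -1.85 and -2.28 for Sox10, -0.14 and -0.11 for Olig2, and 0.53 and 0.45 for Olig1. Without knockdown culture 1 they were -2.08 and -2.88 for Lpar1, -2.03 and -2.29 for Enpp6, -1.36 and -2.12 for Mbp, -0.99 and -1.70 for Myrf, -0.48 and -0.92 for Gpr17, and -0.16 and -0.29 for Pdgfra. Sox10 then was at -0.35 and -0.83, Olig2 at 0.13 and 0.090, and Olig1 at 0.53 and 0.38. Untreated and TTX values come from the same cultures, and the difference between them is the interaction given with TTX.

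The authors' deposited table of 6 against 6 libraries gave Lpar1 a z of -6.34 (p = 1.2e-10), Myrf -4.72 (p = 1.18e-06) and Olig1 3.55 (p = 0.000195). In that deposited table the z was -2.73 for classic Mbp, -3.62 for the Golli entry and -2.70 for Enpp6. Gpr17, Sox10, Pdgfra and Olig2 lay between -1.32 and -0.005 there. Benjamini-Hochberg values computed from the authors' deposited p were 5.2e-07 for Lpar1, 0.000622 for Myrf, 0.0151 for Olig1, 0.0832 for Enpp6 and 0.0791 for classic Mbp. All Benjamini-Hochberg values from deposited p were taken over 17339 gene symbols, and that p is one-sided where small. The limma p is two-sided and was adjusted over 12073 genes, so these values are not on the same footing. In the authors' deposited tables of 3 against 3 libraries, the Benjamini-Hochberg value of Lpar1 was 0.0306 untreated and 0.000614 with TTX. That of Myrf in the authors' deposited tables was 0.574 and 0.0017, and that of Olig1 0.763 and 0.241. In limma over both treatments Lpar1 had an adjusted p of 0.112 on the 12 libraries with groups alone and of 0.773 on culture averages. The source of the difference between the authors' tables and limma was not tested.

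**Figure D4:**
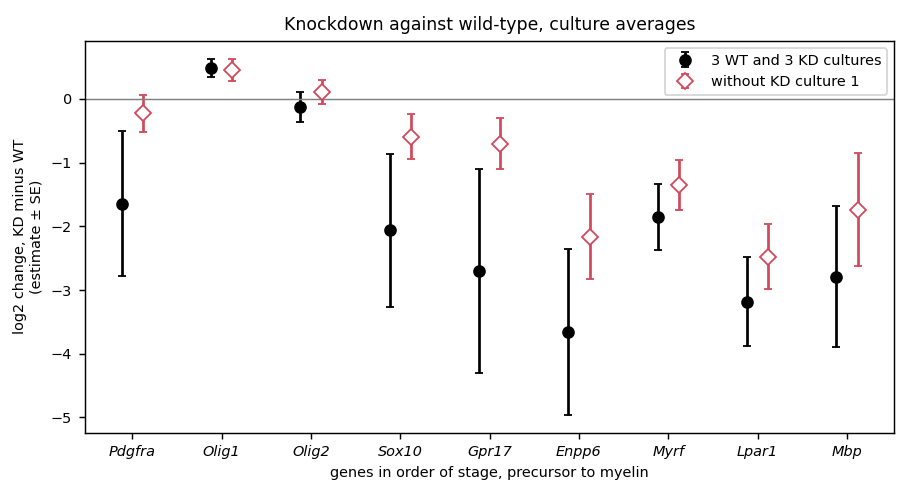
Log2 change of each member, knockdown (KD) minus wild-type (WT), from culture averages in limma with its SE, for all 6 cultures (black) and without knockdown culture 1 (red diamonds). Without that culture the estimates are -0.23 for Pdgfra, -0.59 for Sox10 and -0.70 for Gpr17, against -2.48 for Lpar1 and -2.16 for Enpp6, with Olig1 above 0 in both.

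Other genes of the lineage were counted over both treatments, knockdown against wild-type, beside a median log2 change of 0.00 for all genes. Of 15 precursor genes 13 were lower and 0 called, with a median of -0.47 that was -0.12 without knockdown culture 1. Matn4, a matrix protein of precursors, was lowest (-2.25, SE 1.19), and without that culture Tnr, a tenascin, was lowest (-0.98, SE 0.23). Of 15 genes of differentiating cells 14 were lower and 0 called, with a median of -0.50 and of -0.35 without that culture. Bmp4, a secreted inhibitor of maturation that newly committed cells make, was lowest at -3.39 (SE 1.38), and at -1.70 (SE 0.48) without it. Rras2, a small GTPase, was highest at 0.13, and at 0.05 without it.

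Of 19 myelin genes 14 were lower and 0 called, with a median of -1.14 and of -0.60 without culture 1. Cldn11, the tight junction protein of myelin, was lowest at -4.05 (SE 0.96) and stayed at -3.09 (SE 0.72) without it. Its level was 102.6 to 805.3 in wild-type and 2.21 to 37.7 in knockdown libraries. Car2, a carbonic anhydrase, was highest at 0.39. Knockdown libraries were all below wild-type for Tnr among the precursor genes, for Bmp4 and Sema5a among the differentiating genes and for Cldn11, Tspan2 and Fa2h among the myelin genes, against 1.04% of all genes tested.

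The 22 tested ligands, receptors and regulators that act on the lineage had a median of -0.13, with 12 lower and 0 called, and of -0.03 without culture 1. Erbb3, a neuregulin receptor, was lowest at -1.49 (SE 0.60) and at -0.75 (SE 0.20) without that culture, and Shh, the ligand that induces the Olig genes in the ventral neural tube, highest at 0.53 (SE 0.21). Among lists of other cells, microglia genes were lower for 7 of 7 (median -1.54), neuronal genes higher for 13 of 14 (median 0.43), and astrocyte genes had a median of -0.11. Without culture 1 the medians were -1.68, 0.27 (12 of 14 higher) and 0.00. The microglia median is uncertain because some levels were near 0, where the log2 change depends on the pseudocount of 1. Aif1, for example, averaged 0.717 to 1.25 in the knockdown cultures and 0.947 in wild-type culture 2. Csf1r and Cd68, with means of 17.3 and 30.6 over all libraries, changed by -1.05 (SE 0.56) and -0.28 (SE 0.30). The summed microglia list was 52.9 to 260.0 in wild-type libraries and 39.3 to 69.2 in knockdown libraries. Its values in wild-type culture 2, 52.9 and 53.3, lay inside the knockdown range. Its highest wild-type values were in cultures 1 and 3, the cultures where Mbp, Lpar1 and Enpp6 were highest too. The part of these cell markers in the members' changes was not tested.

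The second question was what silencing with TTX does to the same genes. In wild-type all 9 had a positive log2 change, with a median of 0.33 against 0.02 for all genes, and in knockdown 3 of 9 did, with a median of -0.09. Of all 12073 genes tested, 6543 had a positive change in wild-type and 6378 in knockdown. Lists of other cells moved with TTX too. In wild-type 14 of 16 astrocyte genes (median 0.23) and 14 of 14 genes of dividing progenitors (0.24) were higher. Of neuronal genes 12 of 14 were lower (-0.29). In knockdown the counts were 14 of 16 (0.15), 14 of 14 (0.38) and 13 of 14 lower (-0.31). The part of these cell markers in the members' TTX changes was not tested. No member was called by limma with groups alone, where 0.0331% of genes were called in wild-type and 0% in knockdown, with 682 and 447 at an unadjusted p under 0.05. With each culture as a term 3.18% and 0.514% of genes were called, and again no member.

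Olig1 and Olig2 were higher with TTX in all 6 cultures, a pattern of 11.8% of all genes tested. The TTX change of Olig1 in wild-type was 0.34 on the log2 scale (SE 0.15, adjusted p = 0.877 with groups alone). Its adjusted p was 0.104 with each culture as a term and 0.0448 with culture as a random block, where it passed and 6.05% of genes were called. Over all alternatives it lay between 0.0448 and 1.00. In knockdown its change was 0.26, with an adjusted p of 1 with groups alone and 0.217 with each culture as a term. For Olig2 the log2 values were 0.13 in wild-type and 0.16 in knockdown, and it passed in neither.

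The other members were compared culture by culture. Sox10, Myrf, Lpar1 and Mbp were each higher in 3 of 3 wild-type cultures, and in 1, 2, 1 and 1 of 3 knockdown cultures. The share of all genes that were higher in 3 of 3 wild-type cultures was not counted. Pdgfra and Gpr17 were higher in 2 of 3 cultures of either genotype, and Enpp6 in 1 of 3 wild-type and 0 of 3 knockdown cultures. The log2 difference of Mbp was 0.06 to 0.62 among the wild-type cultures and -0.87 to 0.09 among the knockdown cultures. That of Lpar1 was 0.09 to 0.62 and -0.86 to 0.10. The difference of the TTX changes between genotypes was -0.80 for Lpar1 (SE 0.27 with each culture as a term), -0.63 for Mbp (SE 0.29), -0.60 for Myrf (SE 0.38) and -0.42 for Sox10 (SE 0.14). None passed, all 4 having an adjusted p of 0.974 in limma with each culture as a term, where 0% of genes were called and 455 had an unadjusted p under 0.05. With groups alone 0% were called too, with 53 at an unadjusted p under 0.05. Of the genes that act on the lineage, Jag1, a Notch ligand, rose with TTX in wild-type (log2 0.60, adjusted p = 0.0214) and in knockdown (0.65, adjusted p = 0.0411) with each culture as a term, and not with groups alone.

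**Figure D5:**
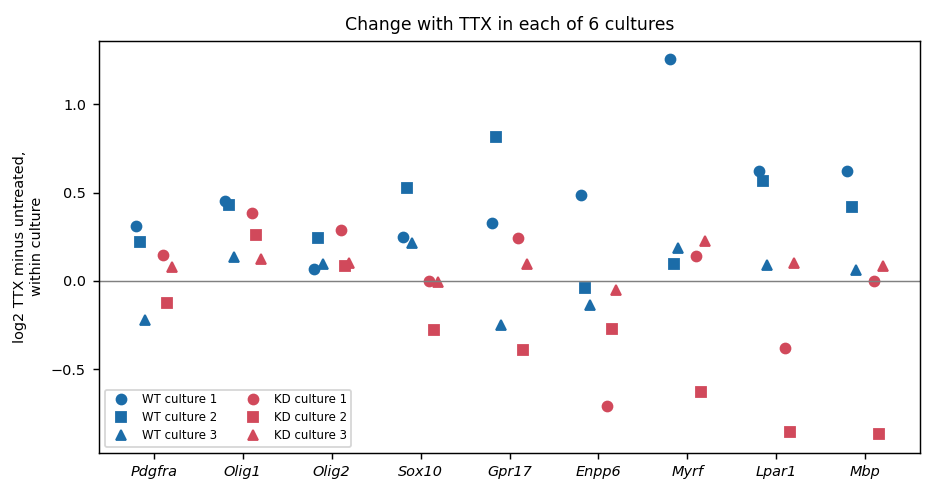
Log2 level with TTX minus untreated for each member within each of 6 cultures, wild-type (WT) in blue and knockdown (KD) in red, with a marker per replicate number. Olig1 and Olig2 are above 0 in all 6 cultures, and Lpar1 and Mbp are above 0 in 3 of 3 wild-type cultures and in 1 of 3 knockdown cultures.

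The genes nearest in pattern to 3 members were found by the root mean square difference of centred log2 levels over 12 libraries, among 10614 genes. For Pdgfra they were Pkp1 (0.23), a desmosomal plakophilin, Sox10 (0.32), Rbpjl (0.37), Myo7b (0.37) and Matn4 (0.37), against a median of 1.68 over all genes. For Mbp they were Mag (0.42), an adhesion protein of myelin, Lpar1 (0.60), Apod (0.70), Enpp6 (0.72) and Pnlip (0.72), against a median of 2.0. For Olig2, whose level moved little, they were Map4k4 (0.10), Lnx1 (0.10), Ddah2 (0.11), Nrarp (0.11) and Amotl2 (0.12), against 0.36. Pdgfra had Sox10 nearby, and Mbp had Lpar1 and Enpp6. All genes named for Pdgfra were among the 25 genes more than 5-fold below the other libraries in knockdown culture 1. So were Apod, Enpp6 and Pnlip of those named for Mbp, and none of those named for Olig2. Likeness to Pdgfra and Mbp therefore includes the shared low values of that culture. The 12 libraries come from 6 cultures, so they are not 12 independent points.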

How the data were processed

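The authors deposited a signal per RefSeq transcript and library, which from the values is base coverage divided by a size factor; it was divided by the read length of 42 nt to give read equivalents. Per the submitters' processing notes, the authors used GSNAP, DESeq, DESeq2 and rn6. The authors' deposited score is a signed z, and their deposited p-value comes with no statement on adjustment and, from the values, is a one-sided normal tail of z where small. The 18905 entries were reduced to the one of highest mean per symbol, and a gene was tested if 3 or more libraries reached 10 read equivalents. Log2 values with a pseudocount of 1 were analysed in R 4.3.3 by limma 3.58.1, with groups alone for TTX and interaction and with culture averages for knockdown over both treatments. The limma p-values, two-sided, were adjusted by Benjamini-Hochberg over all genes tested, with a threshold of 0.05. Benjamini-Hochberg values from the authors' deposited p were computed over all 17339 gene symbols. The fit was also run on simulated data, where all genes were given the same spread. Changed genes shifted there by the same fold in every culture of the changed group. A gene with a culture as low as knockdown culture 1 was not simulated. The series' design text calls the libraries biological triplicates.

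Deviations from group means correlated at 0.438 to 0.849 between TTX and untreated libraries of 1 number in wild-type and at 0.695 to 0.782 in knockdown. Between genotypes they were -0.266 to -0.00656, and numbers were used to pair libraries within a genotype only. Whether libraries of 1 number share a preparation across genotypes cannot be settled from such values. The members, lists and tests were chosen with earlier results of these data known. Named are the members, the target, the called or otherwise the highest and lowest genes of each list, and the 5 genes most like Pdgfra, Olig2 and Mbp. Alternatives were another pseudocount, no filter, other scalings, another entry per symbol, trend and robust options, culture as a block, and leaving out libraries. Some genes of the lists are not reported here.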

Additional observations from a re-analysis of the deposited data

How the results depend on the processing

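Of 846 values of single members under the alternatives, 779 kept their direction and side of the threshold, 66 turned direction and 1 came to pass, Olig1 with TTX in wild-type under the replicate block as a random block (log2 0.34). No member's knockdown change turned except that of Olig2. Counts of called genes moved more. With no filter they were 2 and 3 for TTX in wild-type and knockdown, and 1 and 2 for knockdown untreated and with TTX. On the deposited coverage scale they were 11 and 5 for TTX, 9 and 9 for knockdown, 25 for knockdown over both treatments and 7 for the interaction. With the replicate block as a term they were 384 and 62 for TTX in wild-type and knockdown, and with culture as a random block 730 and 349. Groups alone with no replicate block gave 3 for knockdown over both treatments. Leaving out 1 library gave 0 to 3 for TTX in wild-type and 0 to 1 for knockdown with TTX. The entry with the lowest mean turned TTX in knockdown for Mbp to 0.0080. Without knockdown culture 1, with or without the replicate block, Pdgfra in TTX in knockdown was -0.023 and the interaction of Olig2 -0.042. Olig2 then was 0.13 in knockdown untreated and 0.090 with TTX.

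With 1 library left out, these log2 changes turned direction at some point. The fits used groups alone and kept the other library of the culture. The ranges for TTX and the interaction therefore include differences in level between cultures. Within the knockdown cultures the TTX change was -0.13 to 0.15 for Pdgfra and -0.39 to 0.24 for Gpr17. Of TTX in wild-type, Gpr17 ran from -0.10 to 0.68, Enpp6 ran from -0.48 to 0.74, Lpar1 ran from -0.10 to 0.88, Mbp ran from -0.46 to 1.17, Pdgfra ran from -0.19 to 0.40. Of TTX in knockdown, Pdgfra ran from -1.42 to 1.43, Olig2 ran from -0.11 to 0.36, Sox10 ran from -1.59 to 1.36, Gpr17 ran from -2.08 to 1.91, Enpp6 ran from -1.75 to 1.24, Myrf ran from -0.65 to 0.42, Mbp ran from -1.38 to 0.72, Lpar1 ran from -1.08 to 0.33, Ehmt1 ran from -0.012 to 0.30. Of knockdown untreated, Olig2 ran from -0.28 to 0.13. Of knockdown with TTX, Olig2 ran from -0.27 to 0.090. Of knockdown over both treatments, where both libraries of a culture were left out and culture averages used, Olig2 ran from -0.27 to 0.11. Of the interaction, Olig1 ran from -0.18 to 0.039, Olig2 ran from -0.25 to 0.23, Gpr17 ran from -2.38 to 1.62, Enpp6 ran from -1.85 to 1.14, Mbp ran from -1.74 to 0.36, Pdgfra ran from -1.52 to 1.32, Sox10 ran from -1.92 to 1.03, Ehmt1 ran from -0.19 to 0.12. Scaled to the total of each library, the members' knockdown changes kept their direction; a per-kilobase scale was not run because lengths were not used. Enpp6 and Lpar1 rest on few reads in knockdown culture 1, at under 10 read equivalents. No test of the members passed with all 6 cultures averaged, and 3 cultures a genotype limit what such a test can show.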
